A study of Mus musculus with 32 samples.

Results

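β cells taken 1 week after withdrawal of doxycycline (1wk WD) were compared with β cells of mice that never received it (No Dox). The comparison used every library that the labels name as 1wk WD β cells or No Dox β cells, 3 and 4 libraries, which is 7 of the 32 samples of the series. In these βVEGF-A; MIP-GFP mice, which are on a C57BL/6 background, doxycycline (Dox) makes β cells produce human VEGF-A, and expansion of the islet endothelium, loss of β cells, and recruitment of macrophages (MΦs) follow. Expression in purified β cells, endothelial cells (ECs), and MΦs was measured to describe the signals present when β cells divide again after the withdrawal. All mice carried RIP-rtTA, in which the rat *Ins2* promoter drives the Dox-dependent activator, TetO-VEGF-A, and MIP-GFP, in which the mouse *Ins1* promoter drives GFP, so the No Dox controls also hold every transgene. The 1wk WD mice received Dox for 1 week and were then without it for 1 week. Islets of several mice went into each sample, and β cells were sorted as GFP+ cells that bound neither CD31 nor CD11b antibody. The promoter behind the sorted marker is the *Ins1* promoter itself, and mouse *Vegfa* does not measure the human transgene. β cells at 1wk Dox (5 libraries) entered the fit to share its estimate of the spread, and their values are given beside the others. They were set against the same No Dox libraries, so the 1wk Dox and 1wk WD differences are not independent.

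β cells sense glucose by taking it up through Glut2 (*Slc2a2*) and metabolizing it, and the resulting ATP closes potassium channels and releases insulin from zinc-rich granules. A set of transcription factors that includes Pdx1, Mafa, and Nkx6-1 keeps this programme on. β cells divide rarely in the adult, and regrowth after a loss draws on mitogens, matrix contacts, and other cells of the islet.

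The deposited unit is a score, the authors' TMM-normalized expression value rounded to a whole number, with 1 as the lowest. Scores are not read counts, and the sequencing depth behind them is unknown. The scores of a library summed to between 34622394 and 49952535 at No Dox and between 27728760 and 39053769 at 1wk WD.

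The libraries of each group differed in their content before any comparison. Insulin genes (*Ins1* and *Ins2*) made up 20.9, 14.7, 3.05, and 1.31% of all scores in No Dox libraries 1 to 4, and 1.99, 5.98, and 26.6% in 1wk WD libraries 1 to 3. Insulin transcripts were therefore present in every library, against at most 0.0797% in any EC or MΦ library, but to a very unequal degree. The 24 acinar marker genes measured, which encode digestive enzymes of the exocrine pancreas, made up 2.69, 0.157, 36.7, and 29.9% of the scores at No Dox and 3.12, 0.533, and 0.0191% at 1wk WD. The 20 stromal and pericyte markers took 0.00476, 0.00587, 0.372, and 1.46% at No Dox and 1.55, 1.35, and 0.0828% at 1wk WD. In No Dox 3 and 4, and by less in 1wk WD 1, the acinar share exceeded the insulin share, so these markers do not show purified β cells there. No Dox 3 and 4 also carried stromal RNA, and 1wk WD 1 and 2 carried stromal RNA with less acinar RNA. No Dox 1 and 2 and 1wk WD 3 came nearest to insulin-rich β cells, although 1wk WD 3 held more stromal RNA than No Dox 1 and 2. In a bulk sample, fewer cells of a type and less RNA per cell cannot be told apart.

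**Figure D1:**
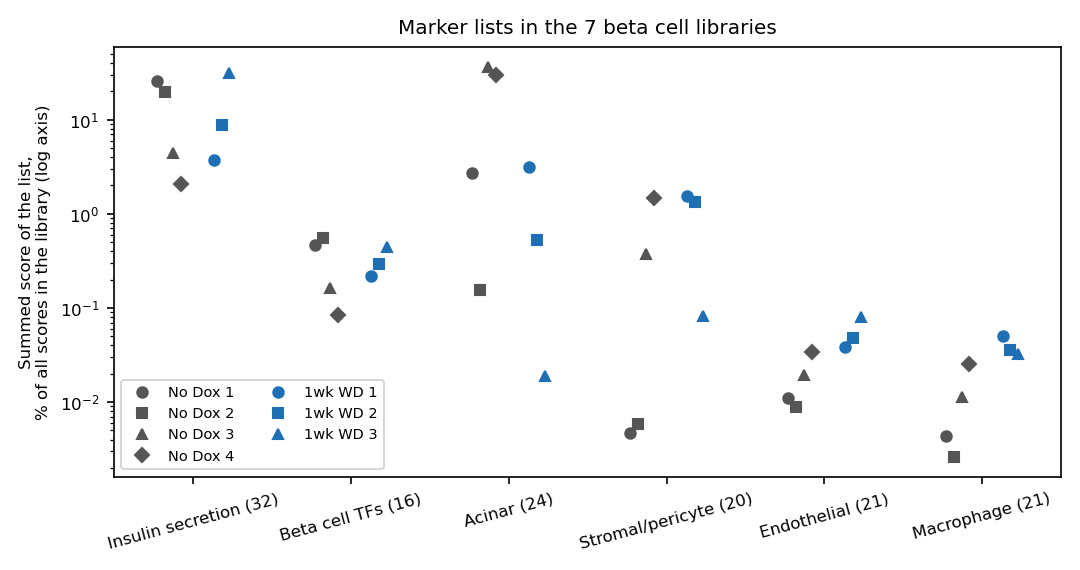
Summed score of 6 marker lists as a percentage of all scores in the library (log axis), with 1 point for each of the 4 No Dox (grey) and 3 1wk WD (blue) libraries and the number of genes in parentheses. No Dox 1 and 2 and 1wk WD 3 share high insulin secretion genes and have the lowest stromal shares shown. The stromal share of 1wk WD 3 (0.0828%) still lies well above those of No Dox 1 and 2 (0.00476 and 0.00587%). Acinar markers exceed 29% of the scores in No Dox 3 and 4 only.

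Endothelial and macrophage markers were present at low levels in the β cell libraries. The mean log2(score + 1) of 21 endothelial markers was 6.43, 6.06, 7.95, and 7.92 at No Dox and 7.16, 7.78, and 9.54 at 1wk WD, where No Dox ECs had 13.96 to 14.18. The highest of these β cell values, in 1wk WD 3, came with a *Pecam1* (CD31) score of 3011, against 168 to 537 at No Dox. The 21 macrophage markers had means of 4.88, 3.78, 6.09, and 7.91 at No Dox and 6.16, 6.88, and 8.45 at 1wk WD, against 13.88 to 14.29 in No Dox MΦs. The part of these cells in the results that follow was not tested. Across genes, the Spearman correlation was 0.972 between No Dox 1 and 2 and 0.938 between No Dox 3 and 4, but 0.731 to 0.865 between these pairs. 1wk WD 3 correlated with No Dox 1 at 0.923 and with its own group at 0.80 and 0.871. Within each group the libraries are thus unlike, in a way that runs across both groups. In the sample titles, the identifier of 1wk WD 3 lies apart from the consecutive identifiers of the other β cell libraries. The labels do not say why, and whether this goes with its content was not tested.

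Against this spread, 0 of 16152 genes tested (0%) passed both a 2-fold change and an adjusted p under 0.05 (limma on log2(score + 1), Benjamini-Hochberg). The smallest adjusted p was 0.092. At an unadjusted p under 0.05 and the same fold change, called the unadjusted threshold from here on, 463 genes were higher in 1wk WD libraries (2.87% of those tested) and 260 lower (1.61%). Under quantile normalization these were 347 and 452, so the balance of the 2 directions depended on the scaling. By fold change alone, 2667 genes were at least 2-fold higher (16.5%) and 871 lower (5.39%). Over all genes the log2 fold change had a median of 0.07, and the median residual SD was 0.603. The 3 and 4 libraries did not overlap for 545 genes with higher (3.37%) and 506 with lower scores (3.13%) at 1wk WD. Of these, 242 and 136 also had a fold change of 2 or more. The count depended on the unlike No Dox libraries. With No Dox 3 and 4 left out, an alternative chosen after the data were seen, 1339 genes were higher (8.33%) and 94 lower (0.585%) at an adjusted p under 0.05. With No Dox 1 and 2 left out instead, 0 were higher and 14 lower (0.0864%). Of the 1339 genes, 558 had a positive log2 fold change under the opposite omission, with a median of -0.14.

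**Figure D2:**
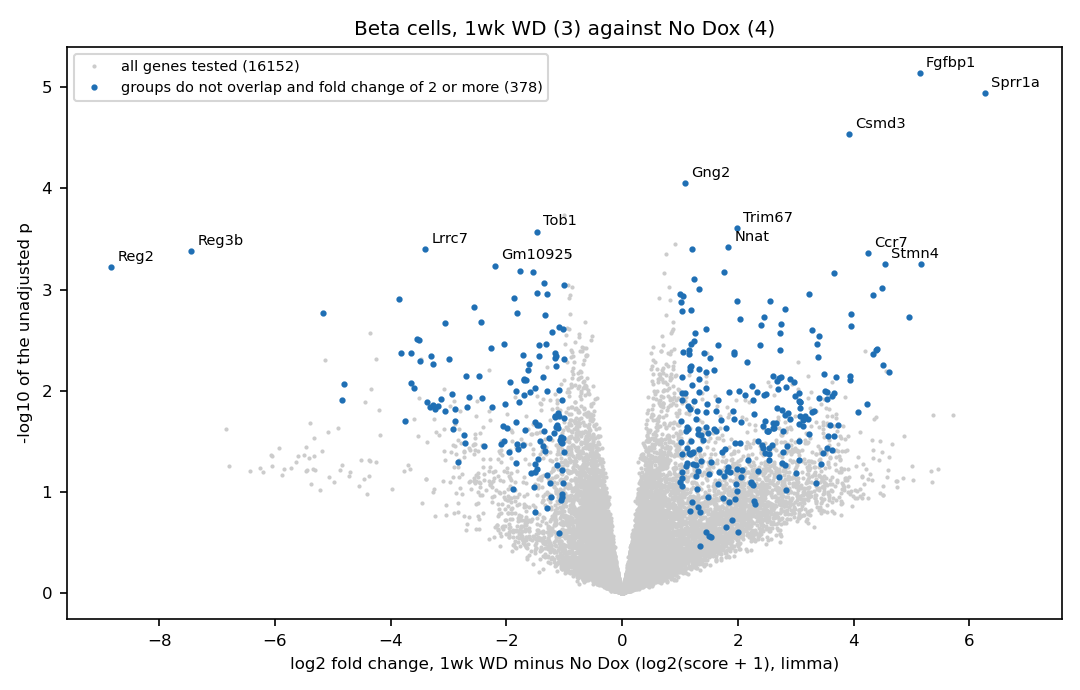
Each point is a gene, with the log2 fold change of 1wk WD against No Dox on the horizontal axis and -log10 of the unadjusted limma p on the vertical axis. Blue points are the 378 genes whose 3 and 4 libraries do not overlap and differ at least 2-fold, and the named ones include *Sprr1a*, *Fgfbp1*, and *Csmd3* at the top right and *Reg2* and *Reg3b* at the far left.

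The genes with the smallest p among those whose groups did not overlap were led by *Fgfbp1*, *Sprr1a*, and *Csmd3*, all higher at 1wk WD. *Sprr1a* encodes a small proline-rich protein of the cornified envelope that also appears in injured neurons and muscle. It lies at chr3:92287874-92289817 on the minus strand (mm9). Its scores were 18, 62, 100, and 3 at No Dox and 2445, 1699, and 2022 at 1wk WD, or 45.8 ± 44.0 (SD, n = 4) and 2055 ± 374 (SD, n = 3). The 2 groups lay far apart. The log2 fold change was 6.27 ± 0.86 (SE, limma adjusted p = 0.092), and over all alternatives the adjusted p ran from 0.000557 to 0.826. At 1wk Dox the scores were 2143, 5532, 3175, 3441, and 4493. Mean scores in ECs and in No Dox MΦs were 1, and in 1wk WD MΦs 5.25.

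*Fgfbp1*, whose secreted product binds fibroblast growth factors and frees them from matrix, was at the lowest score of 1 in all 4 No Dox and all 5 1wk Dox libraries. It scored 115, 39, and 75 at 1wk WD. Its level was low but present in each 1wk WD library and in no earlier β cell library (limma adjusted p = 0.092), so no fold change is given. A gene needed a mean score of 20 in 1 of the groups to be tested. *Fgfbp1* met this through 1wk WD alone, so it had to be higher there and its p is no support. The same limit applies to *Stmn4* and *Apol7c*, named below. ECs had mean scores of 1.25 at No Dox and 2 at 1wk WD. *Anxa10*, an annexin gene added here after its values were seen, had scores of 49, 75, 32, and 1 at No Dox and 389, 691, 626, 448, and 911 at 1wk Dox, with 294, 428, and 1002 at 1wk WD. Its 1wk WD and No Dox libraries lay apart as well, by a log2 fold change of 4.49 ± 1.03 (SE, adjusted p = 0.452).

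The 250 bases upstream of the RefSeq starts of these 3 genes are shown, 5′ to 3′ on the gene's strand, with matches to the AP-1 motif TGANTCA in capitals. The sequences come from the RefSeq table on GRCm38.p6, and each matched a single place in mm9, at chr3:92289804-92290053, chr8:64601991-64602240, and chr5:44373039-44373288 in the order shown, all on the minus strand. The 3 genes were picked for display after their scores and their motif matches had been seen, *Anxa10* among them, so the matches in them are an illustration and no evidence about the higher genes.
Sprr1a: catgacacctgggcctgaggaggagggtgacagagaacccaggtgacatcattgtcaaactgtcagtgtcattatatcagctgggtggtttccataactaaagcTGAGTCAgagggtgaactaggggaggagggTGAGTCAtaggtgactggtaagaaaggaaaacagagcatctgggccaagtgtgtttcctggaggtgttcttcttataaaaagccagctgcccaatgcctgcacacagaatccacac
Anxa10: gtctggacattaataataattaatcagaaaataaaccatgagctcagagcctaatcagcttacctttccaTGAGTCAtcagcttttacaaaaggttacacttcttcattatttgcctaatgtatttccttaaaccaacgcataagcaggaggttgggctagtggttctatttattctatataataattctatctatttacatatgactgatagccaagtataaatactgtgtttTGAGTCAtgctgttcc
Fgfbp1: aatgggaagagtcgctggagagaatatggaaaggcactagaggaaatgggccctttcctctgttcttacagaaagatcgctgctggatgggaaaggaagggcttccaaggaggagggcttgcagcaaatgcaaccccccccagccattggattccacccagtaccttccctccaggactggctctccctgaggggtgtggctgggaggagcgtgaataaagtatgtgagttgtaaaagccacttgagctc
Sprr1a and Anxa10 each held 2 matches, and Fgfbp1 held 0. The motif reads the same on both strands. Over all 32851 upstream sequences of this length, 6.75% held at least 1 match and 0.338% held 2 or more. Of the genes whose groups did not overlap and that were higher by a fold change of 2 or more, 154 had a sequence and 12 of those held a match (7.79%), against 3 of 87 for those lower (3.45%) and 4.79% of all tested genes with a sequence. Of the 10 higher genes of the naming rule, 7 had a sequence and 2 of those held a match (*Sprr1a* and *Gng2*), and of the 10 lower genes, 9 had a sequence and 0 held a match. A match describes the letters only.

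*Csmd3*, a large membrane protein with CUB and sushi domains, scored 101, 27, 69, and 68 at No Dox and 4977, 17999, 10680, 3451, and 9892 at 1wk Dox, with 1514, 539, and 945 at 1wk WD. Its 1wk WD libraries lay between the other 2 groups without overlap (log2 fold change against No Dox 3.91 ± 0.59 SE, adjusted p = 0.156). *Trim67*, a TRIM family gene of the nervous system, had 169, 160, 117, and 67 at No Dox and 378, 486, and 600 at 1wk WD (1.98 ± 0.38 SE, adjusted p = 0.452). *Nnat* (neuronatin), an imprinted gene active in β cells and neurons, had 358, 230, 358, and 326 at No Dox and 998, 686, and 2058 at 1wk WD (1.84 ± 0.37 SE, adjusted p = 0.452). *Stmn4*, a stathmin gene whose family acts on microtubules, was at 1, 1, 34, and 11 at No Dox and at 111, 99, and 297 at 1wk WD. For *Sprr1a*, *Csmd3*, *Trim67*, *Nnat*, and *Stmn4*, every 1wk Dox library also lay above every No Dox library. These 5 genes were therefore already at higher scores while Dox was present.

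The other 4 of the 10 higher genes were at higher levels in MΦs than in ECs. *Gng2*, a G protein subunit gene, scored 847, 692, 901, and 1004 at No Dox and 2033, 1621, and 1787 at 1wk WD, the narrowest groups among these genes (log2 fold change 1.08 ± 0.18 SE, adjusted p = 0.355). Its mean was 986 in ECs and 11501 in MΦs at No Dox. *Rnf19b*, a ubiquitin ligase gene, scored 931, 845, 922, and 1170 at No Dox and 2966, 2393, and 1513 at 1wk WD. *Ccr7*, the chemokine receptor that guides dendritic and T cells to lymph nodes, scored 63, 25, 490, and 380 at No Dox and 3596, 3062, and 1433 at 1wk WD (4.24 ± 0.88 SE, adjusted p = 0.452), where No Dox MΦs averaged 1738 and 1wk WD MΦs 3965. Its log2 fold change was 5.94 without No Dox 3 and 4 and 2.54 without No Dox 1 and 2. *Apol7c*, an apolipoprotein L gene, scored 1, 1, 11, and 10 at No Dox and 144, 268, and 127 at 1wk WD, against 198 and 504 in MΦs at No Dox and 1wk WD. For these genes 1wk WD β cell libraries exceeded all No Dox β cell libraries, and macrophage markers were also higher in the mean at 1wk WD. Whether such cells account for the values was not tested.

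**Figure D3:**
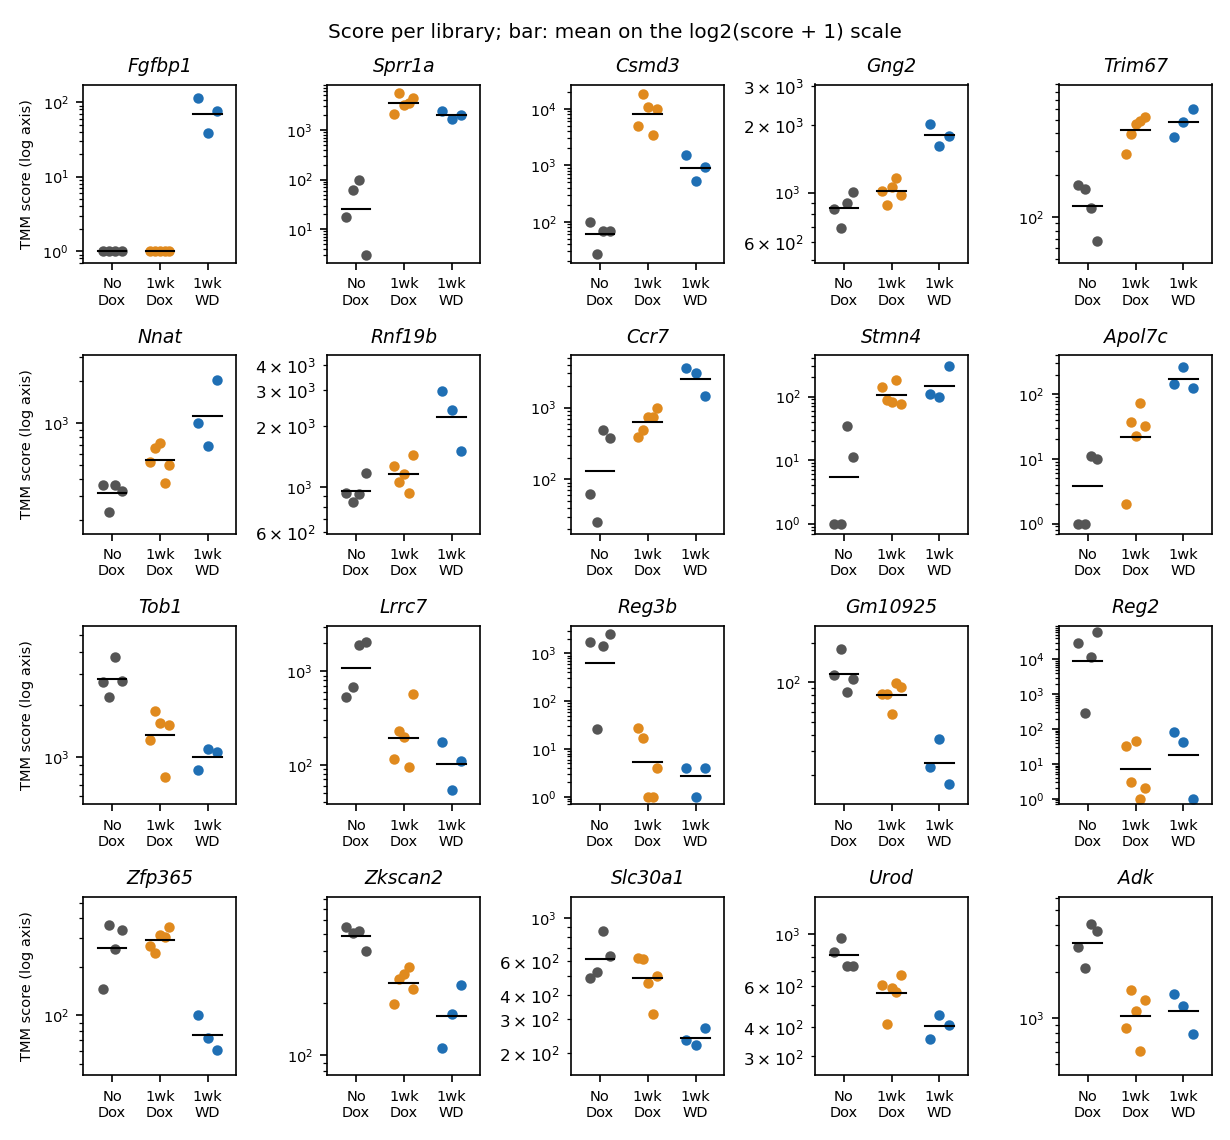
Score (log axis) of the 10 higher and 10 lower genes with the smallest p in each β cell library at No Dox (4, grey), 1wk Dox (5, orange), and 1wk WD (3, blue), with a bar at the mean on the log2(score + 1) scale. *Sprr1a*, *Csmd3*, and *Stmn4* are high at both 1wk Dox and 1wk WD, *Fgfbp1* and *Gng2* at 1wk WD, and *Reg2* and *Reg3b* are low at both.

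Among the 10 lower genes, *Tob1*, an antiproliferative gene, had the smallest p. Its scores were 2698, 2205, 3737, and 2731 at No Dox and 851, 1109, and 1076 at 1wk WD (log2 fold change -1.47 ± 0.29 SE, adjusted p = 0.452). The 2 groups were each narrow and well apart, and the 1wk Dox scores of 1261, 1832, 1566, 772, and 1523 were all below No Dox too. *Lrrc7*, a scaffold gene of synapses, scored 526, 674, 1924, and 2030 against 174, 54, and 111. *Adk* (adenosine kinase) scored 2878, 2114, 4090, and 3661 against 1438, 1189, and 793. *Zkscan2*, a zinc finger gene, scored 549, 507, 520, and 397 against 109, 173, and 252. *Lrrc7* overlapped at 1wk Dox with No Dox in its highest library, whereas *Adk* and *Zkscan2* did not.

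Another 3 genes differed in where their 1wk Dox libraries lay. *Slc30a1*, an exporter of zinc from cells, scored 490, 528, 864, and 638 at No Dox and 626, 619, 462, 318, and 501 at 1wk Dox, with 235, 220, and 270 at 1wk WD (-1.35 ± 0.30 SE, adjusted p = 0.452). *Zfp365* scored 146, 362, 258, and 336 at No Dox and 269, 243, 313, 306, and 355 at 1wk Dox, with 100, 72, and 61 at 1wk WD. *Urod*, an enzyme gene of heme synthesis, scored 844, 967, 732, and 732 at No Dox and 357, 452, and 408 at 1wk WD, with 414 to 668 at 1wk Dox, below every No Dox library. For *Slc30a1* and *Zfp365* the 1wk Dox libraries overlapped with No Dox and not with 1wk WD, and the difference between 1wk Dox and 1wk WD was not tested here. The 20 genes were chosen for groups that did not overlap, so their direction under omission of a library is fixed by that choice. With No Dox 3 and 4 left out, 14 of the 20 had an adjusted p under 0.05, and with No Dox 1 and 2 left out, 1 had. Over all genes, 8.33% were called higher and 0.585% lower under the first omission, and 0 and 0.0864% under the second. The 20 were picked for a small p in these same libraries, so the counts of 14 and 1 are no support for them.

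The insulin genes differed far more within the groups than between them. *Ins1* (chr19:52338813-52339946, plus strand, mm9) scored 5388185, 3168657, 961141, and 296363 at No Dox and 350182, 1135945, and 5791698 at 1wk WD. *Ins2* scored 2775782, 1905594, 561806, and 273058 at No Dox and 202879, 611819, and 4596598 at 1wk WD. The groups overlap fully, and the log2 fold changes were -0.17 ± 2.13 and -0.19 ± 1.71 (SE), with adjusted p of 0.984 and 0.976. Of 16 β cell transcription factor genes, 9 had a positive and 7 a negative log2 fold change, with a median of 0.04 beside 0.07 over all genes tested. *Pdx1* scored 9405, 8530, 3600, and 1157 at No Dox and 3727, 4149, and 12821 at 1wk WD. Of 32 insulin secretion genes, 12 were positive and 20 negative, with a median of -0.16. At the unadjusted threshold 0 genes of either list differed, and 0 had groups that did not overlap, where over all genes 2.87 and 1.61% were higher and lower at that threshold and 3.37 and 3.13% had groups apart. Without No Dox 3 and 4 the medians of the 2 lists were -0.81 and -1.02, and without No Dox 1 and 2 they were 1.03 and 0.62.

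To compare β cell genes with each other inside a library, each gene was also expressed relative to the mean log2(score + 1) of the 16 transcription factors in the same library, an alternative chosen after the data were seen. On this scale the spread within groups of the insulin secretion genes shrank from a median pooled SD of 1.09 to 0.305, while that of all genes grew from 0.64 to 1.16. Over all genes, 0 passed an adjusted p under 0.05, 72 were higher (0.446%) and 166 lower (1.03%) at the unadjusted threshold, and the groups did not overlap for 80 higher (0.495%) and 367 lower genes (2.27%). Of the 32 insulin secretion genes, 9 lay below No Dox in every 1wk WD library and 1 above, and 8 were lower and 1 higher at an unadjusted p under 0.05, where 1.44 and 0.471% of all genes were. The median of the list was -0.22, beside 0.01 over all genes. The smaller spread of β cell genes on this scale makes such separation easier for them, so the counts are not comparable with those of all genes at face value.

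The genes lower on this scale included the glucose transporter and genes of the granule. *Slc2a2* was at 0.79, 1.08, 0.02, and 0.05 relative to the transcription factors at No Dox and at -0.76, -0.51, and -0.28 at 1wk WD, a difference of -0.999 ± 0.399 (log2, SE), which was -1.45 without No Dox 3 and 4 and -0.55 without No Dox 1 and 2. *Slc30a8*, which encodes the zinc transporter of insulin granules, was at 3.62, 4.09, 3.11, and 3.70 at No Dox and 2.69, 2.64, and 2.77 at 1wk WD. Both genes were below every No Dox library in all 3 1wk WD libraries. For *Slc30a8* the difference was -0.93 ± 0.27 (limma, unadjusted p = 0.00436, adjusted p = 1). Without No Dox 3 and 4 it was -1.16, and without No Dox 1 and 2 it was -0.71. *Ero1lb*, an oxidase of insulin folding, differed by -0.64 ± 0.24, *Scg5*, the chaperone of prohormone convertase 2, by -0.68 ± 0.27, *Scg2*, a granin, by -0.62 ± 0.23, and *Cacna1d*, a calcium channel gene, by -0.58 ± 0.26. *Gipr*, the receptor for the incretin GIP, differed by -0.58 ± 0.36, and *Ptprn2*, a granule membrane gene, by -0.38 ± 0.22 (-0.25 without No Dox 3 and 4), also with groups apart.

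Other β cell genes had differences near 0 on this scale. *Abcc8*, the sulfonylurea receptor subunit of the potassium channel, was at 3.59, 3.76, 3.75, and 3.83 at No Dox and 3.60, 3.84, and 3.73 at 1wk WD, a difference of -0.01 ± 0.21. *Pcsk1*, the convertase that opens proinsulin processing, differed by -0.01 ± 0.27, and *Glp1r*, the GLP-1 receptor, by -0.01 ± 0.26, which was -0.41 without No Dox 3 and 4 and 0.39 without No Dox 1 and 2. *Ptprn* (IA-2, a granule membrane protein) was the gene of the list that lay higher, at 1.95, 1.70, 1.91, and 1.77 at No Dox and 2.67, 2.38, and 2.86 at 1wk WD (difference 0.81 ± 0.25, unadjusted p = 0.00774, adjusted p = 1). *Insm1*, a transcription factor gene of endocrine differentiation and itself part of the reference, differed by 0.98 ± 0.40.

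**Figure D4:**
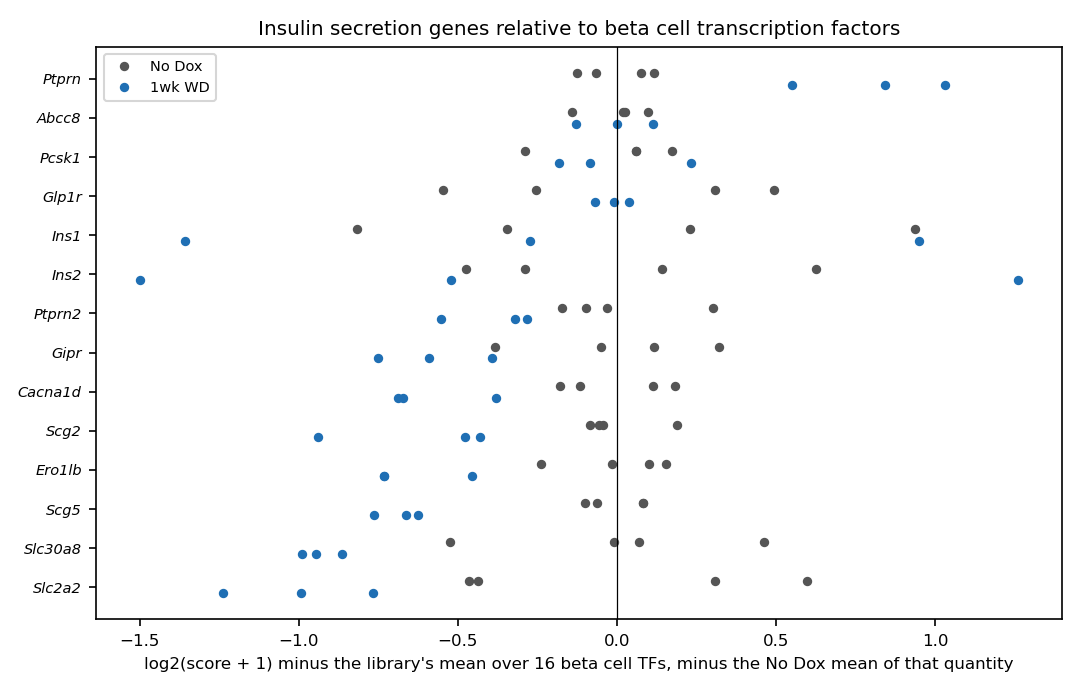
For the 14 insulin secretion genes named here, log2(score + 1) minus the mean of 16 β cell transcription factors in the same library, shown as the distance from the No Dox mean, for 4 No Dox (grey) and 3 1wk WD (blue) libraries. *Slc2a2*, *Slc30a8*, *Scg5*, *Ero1lb*, *Scg2*, *Cacna1d*, *Gipr*, and *Ptprn2* lie below No Dox in all 3 1wk WD libraries and *Ptprn* above, while *Ins1* and *Ins2* overlap.

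Outside the lists, 3 genes are named on the same scale after their values were seen, all of them higher at 1wk WD and with a small p. Some lower genes had a smaller centred p than *Tnfrsf12a* (limma, unadjusted p = 0.00178), among them *Defb1* (0.000639) and *Rgs13* (0.00116). At the unadjusted threshold more genes were lower than higher on this scale (166 against 72). The 3 genes therefore do not show its main direction. *Vgf*, the neuropeptide precursor also stored in insulin granules, scored 667, 374, 240, and 97 at No Dox and 1089, 1774, 2123, 1647, and 2189 at 1wk Dox, with 848, 1172, and 3532 at 1wk WD. Relative to the transcription factors it was at -3.21, -3.98, -3.47, and -3.55 at No Dox and -1.21, -1.36, and -0.90 at 1wk WD, a difference of 2.40 ± 0.42 (adjusted p = 0.447). Without the centring its log2 fold change had an adjusted p of 0.516 (limma). *Pdyn* (prodynorphin) scored 4075, 2234, 1495, and 525 at No Dox and 3542, 3555, and 9358 at 1wk WD, so its scores overlapped (adjusted p = 0.593). Relative to the transcription factors it was at -0.60, -1.41, -0.84, and -1.12 at No Dox and 0.85, 0.24, and 0.51 at 1wk WD, apart on that scale only (adjusted p = 1). *Tnfrsf12a*, the receptor for TWEAK, scored 106, 31, 89, and 3 at No Dox and 438, 209, and 442 at 1wk WD, a centred difference of 3.31 ± 0.84 (adjusted p = 1). *Vgf* and *Pdyn* averaged under 20 in ECs and MΦs at No Dox and 1wk WD, while *Tnfrsf12a* averaged 88.8 and 90.0 in ECs and 249.5 and 313 in MΦs.

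Of 11 markers of other islet endocrine cells, 4 had a positive and 7 a negative log2 fold change (median -0.17), and 2 were lower at the unadjusted threshold (1.61% of all genes) with groups that did not overlap (3.13% of all genes). The direction of the list turned with the No Dox libraries kept, with a median of 0.36 and 7 of 11 positive without No Dox 3 and 4, and -0.82 and 3 of 11 without No Dox 1 and 2. The 2 lower genes were *Gcg* (glucagon), with 26028, 37239, 64922, and 55585 at No Dox and 2313, 5353, and 23705 at 1wk WD (log2 fold change -2.70 ± 0.83 SE, adjusted p = 0.554), and *Ttr* (transthyretin), with 6793, 6936, 6833, and 4664 against 1221, 1488, and 2985 (-1.82 ± 0.45 SE, adjusted p = 0.503). Glucagon and transthyretin are both products of α cells. *Gcg* at 1wk Dox was 10223 to 93820, which overlapped with both groups. *Sst* (somatostatin) scored 7531, 6792, 77372, and 29998 at No Dox and 12667, 32179, and 56643 at 1wk WD, and *Ppy* (pancreatic polypeptide) 11189, 6668, 63847, and 20858 against 7614, 8244, and 9200. Hormone genes of the other islet cells were thus present in every β cell library, and *Gcg* and *Ttr* were the 2 of the list whose groups lay apart.

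For the lists that follow, the shares over all genes tested were 55.0% with a positive log2 fold change, 2.87% higher and 1.61% lower at the unadjusted threshold, and 3.37 and 3.13% with groups apart in the higher and lower direction. Of 33 lists, 12 had a median of the opposite sign without No Dox 1 and 2, and 3 without No Dox 3 and 4. Of 44 genes of S phase and of G2 and mitosis, 14 had a positive and 30 a negative log2 fold change, with a median of -0.23, 0 met the unadjusted threshold, and the groups lay apart for *Kif20a*, a kinesin of cell division, by -0.44 ± 0.32 (SE). The direction of the list depended on the No Dox libraries kept, with 33 of 44 positive (median 0.47) without No Dox 3 and 4 and 2 of 44 (median -1.02) without No Dox 1 and 2. Their mean log2(score + 1) was 7.08, 6.39, 8.82, and 8.03 at No Dox and 8.36, 7.29, and 6.39 at 1wk WD. *Mki67* (Ki67) scored 1619, 1320, 5660, and 3882 at No Dox and 4843, 1986, and 400 at 1wk WD, lowest in the insulin-rich 1wk WD 3. The highest of these list means were in No Dox 3, 1wk WD 1, and No Dox 4, libraries that also held stromal markers. 1wk WD 2 held them too, with a stromal mean of 12.82 against 11.92 in No Dox 3, and its list mean was 7.29. The part of stroma was not tested. *Foxm1*, the mitotic regulator, scored 110, 26, 391, and 434 against 437, 327, and 170 (log2 fold change 0.95 ± 1.08 SE), and *Cdk6*, a G1 kinase, 155, 110, 5789, and 7862 against 5824, 4673, and 798 (1.57 ± 1.48 SE). Without No Dox 3 and 4 the log2 fold changes of *Foxm1* and *Cdk6* were 2.41 and 4.41 (limma adjusted p = 0.203 and 0.0137), and without No Dox 1 and 2 they were -0.51 and -1.27. For *Cdkn2c* (p18), the scores were 121, 185, 168, and 373 against 155, 73, and 51 (-1.21 ± 0.55 SE, adjusted p = 0.602). Of 17 tested G1 cyclins, CDKs, and inhibitors, 11 were positive (median 0.21; 0.04 without No Dox 1 and 2), and *Cdkn2c* was the only gene to meet the unadjusted threshold.

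Of 26 tested genes on β cell mitogen axes, 18 were positive and 8 negative (median 0.27; 0.11 without No Dox 3 and 4), and 0 met the unadjusted threshold. *Myc* and *Igf1r* were the 2 whose groups did not overlap. *Myc* scored 2651, 2127, 3044, and 2660 at No Dox and 1469, 1631, and 1296 at 1wk WD (-0.83 ± 0.24 SE, adjusted p = 0.539), while its 1wk Dox scores of 1874 to 3596 overlapped with No Dox. *Igf1r*, the receptor for insulin-like growth factor 1, scored 10865, 9023, 6511, and 8311 at No Dox and 13198, 17861, 22712, 14551, and 21118 at 1wk Dox, with 13817, 12929, and 14917 at 1wk WD (0.70 ± 0.24 SE, adjusted p = 0.57). *Myc* was thus lower and *Igf1r* higher in each 1wk WD library. *Creb5* scored 27, 14, 505, and 1960 at No Dox and 1890, 1512, and 406 at 1wk WD (2.88 ± 1.40 SE), and *Ets1* 76, 86, 2396, and 4674 against 5375, 2818, and 905 (2.19 ± 1.40 SE), both split by library as the stromal markers were. Without No Dox 3 and 4 their log2 fold changes were 5.68 and 4.87, and without No Dox 1 and 2 they were 0.08 and -0.48.

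Of 26 genes of integrins, the receptors for matrix, 25 had a positive log2 fold change, where 55.0% of all genes had, and 6 met the unadjusted threshold in the higher direction, where 2.87% of all genes did. The median was 1.31, beside 0.07 over all genes. The mean log2(score + 1) of the list was 7.42, 6.88, 9.39, and 9.90 at No Dox and 10.40, 10.24, and 8.92 at 1wk WD. Stromal markers moved with it, at 4.85, 4.24, 11.92, and 13.34 at No Dox and 13.07, 12.82, and 9.22 at 1wk WD, and their part was not tested. *Itga10*, a collagen-binding subunit, scored 278, 125, 242, and 343 at No Dox and 588, 618, and 539 at 1wk WD (1.32 ± 0.43 SE, adjusted p = 0.56). *Itga4* scored 2941, 3190, 2586, and 2354 against 3947, 4076, and 3733, a smaller difference of 0.51 ± 0.15. These 2 subunits were the ones whose groups did not overlap. *Itga5*, the fibronectin receptor subunit, scored 14, 13, 493, and 693 against 1820, 1156, and 575, and *Itgb3* 45, 29, 290, and 646 against 1662, 1353, and 333. *Itga6* and *Itgav*, at 1954 to 5995 and 4475 to 7290 at No Dox and 2797 to 6415 and 6072 to 6907 at 1wk WD, differed by 0.04 ± 0.44 and 0.18 ± 0.25. The median of the list was 2.07 without No Dox 3 and 4 and 0.22 without No Dox 1 and 2, where 16 of 26 were positive.

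Below the integrins, 27 of 29 adaptors and focal adhesion kinases were positive (median 0.60), 3 met the unadjusted threshold (2.87% of all genes), and 5 had groups apart (3.37% of all genes). Their median was 1.11 without No Dox 3 and 4 and 0.19 without No Dox 1 and 2, with 19 of 29 positive under the latter. *Src* scored 976, 576, 986, and 1980 at No Dox and 2654, 2338, and 2354 at 1wk WD (1.25 ± 0.33 SE, adjusted p = 0.529), and *Pak1* 1019, 821, 1635, and 1618 against 2711, 1932, and 1906 (0.82 ± 0.31 SE). Among 26 PI3K-Akt genes, 16 were positive (median 0.09, with 0.01 without No Dox 3 and 4 and -0.01 without No Dox 1 and 2), with 2 higher and 1 lower at the unadjusted threshold. The lower gene was *Pik3c2g*, a class II PI3-kinase, with 12359, 13791, 8378, and 4589 at No Dox and 1687, 4023, and 6302 at 1wk WD (-1.36 ± 0.58 SE, adjusted p = 0.593). Its log2 fold change was -1.90 without No Dox 3 and 4 and -0.83 without No Dox 1 and 2. The higher genes were *Pik3r6*, at 50, 36, 57, and 51 at No Dox and 172, 151, and 247 at 1wk WD, and *Pik3r5* at 409, 460, 1314, and 1924 against 4477, 2770, and 1942. Both encode regulatory subunits of the PI3-kinase that responds to G protein-coupled receptors, and *Pik3r5* averaged 20760 in No Dox MΦs. Of 33 MAPK genes, 22 were positive (median 0.20; 0.08 without No Dox 1 and 2), and 0 met the unadjusted threshold. *Dusp4*, a phosphatase that shuts off ERK, scored 2212, 1700, 1816, and 1628 at No Dox and 3236, 3312, 3141, 2807, and 2613 at 1wk Dox, with 3229, 2954, and 3129 at 1wk WD (0.76 ± 0.16 SE, adjusted p = 0.452), a fold change under 2 with every 1wk Dox and 1wk WD library above every No Dox library.

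Of 23 growth factor receptor genes, 21 were positive (median 0.63), and *Tgfbr2* was the 1 that met the unadjusted threshold. The receptors had a median of 1.21 without No Dox 3 and 4 and of 0.03, with 12 of 23 positive, without No Dox 1 and 2. The platelet-derived growth factor receptors, which mark stroma and pericytes, split by library. *Pdgfrb* scored 80, 66, 13692, and 49477 at No Dox and 48280, 40295, and 3980 at 1wk WD (3.84 ± 2.07 SE, adjusted p = 0.61), and *Pdgfra* 3, 3, 3019, and 10967 against 14446, 9646, and 291 (4.50 ± 2.58 SE). Among the No Dox and 1wk WD libraries, both receptors were highest in No Dox 4 and 1wk WD 1 and 2, which had the highest stromal sums of these 2 groups. Without No Dox 3 and 4 their log2 fold changes were 8.07 and 9.75, and without No Dox 1 and 2 they were -0.40 and -0.74. Of 34 growth factor genes, 26 were positive (median 1.00), 1 met the unadjusted threshold in the higher and 2 in the lower direction, where 2.87 and 1.61% of all genes did. Their median was 2.55 without No Dox 3 and 4 and -0.31, with 11 of 34 positive, without No Dox 1 and 2. The lower were *Egf*, with 1577, 1853, 1692, and 680 against 304, 461, and 1059 (-1.35 ± 0.58 SE), and *Fgf12*, with 11179, 19136, 10670, and 5629 against 3521, 5583, and 6129 (-1.11 ± 0.48 SE). *Vegfa* scored 9490, 10072, 5925, and 3127 at No Dox and 2418, 4680, and 15329 at 1wk WD, with no separation (-0.22 ± 0.61 SE, adjusted p = 0.921). Its sign turned with the No Dox libraries kept, at -0.81 without No Dox 3 and 4 and 0.37 without No Dox 1 and 2.

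All 24 basement membrane genes were positive (median 2.20) and 4 met the unadjusted threshold (2.87% of all genes), with 0 groups apart. This median was 4.46 without No Dox 3 and 4 and 0.11, with 13 of 24 positive, without No Dox 1 and 2. *Col4a1* scored 907, 634, 9463, and 27610 at No Dox and 38408, 31329, and 7134 at 1wk WD. The mean log2(score + 1) of the list was 6.69, 6.34, 10.36, and 11.64 at No Dox and 11.65, 11.82, and 9.56 at 1wk WD, so the 1wk WD libraries 1 and 2 lay at the level of No Dox 4. Stromal markers were high in the same libraries, and their part was not tested. Of 40 matrix proteases and inhibitors, 35 were positive (median 1.90) and 6 met the unadjusted threshold, but without No Dox 1 and 2 the median was -0.33 with 16 of 40 positive, and without No Dox 3 and 4 it was 3.41. The 6 included *Mmp14*, with 9, 5, 874, and 2370 against 3942, 3034, and 478. All 20 stromal and pericyte markers were positive (median 2.71), yet 0 met the threshold, and without No Dox 1 and 2 only 2 of 20 were positive (median -0.99, against 6.80 without No Dox 3 and 4). Of 14 genes that β cells normally keep silent, 13 were positive (median 1.70) and 0 met the threshold, and without No Dox 1 and 2 the median was -0.86, against 4.50 without No Dox 3 and 4. *Pdgfra* and *Zfp36l1* belong to this list and are also expressed in stroma, whose part in the list was not tested.

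**Figure D5:**
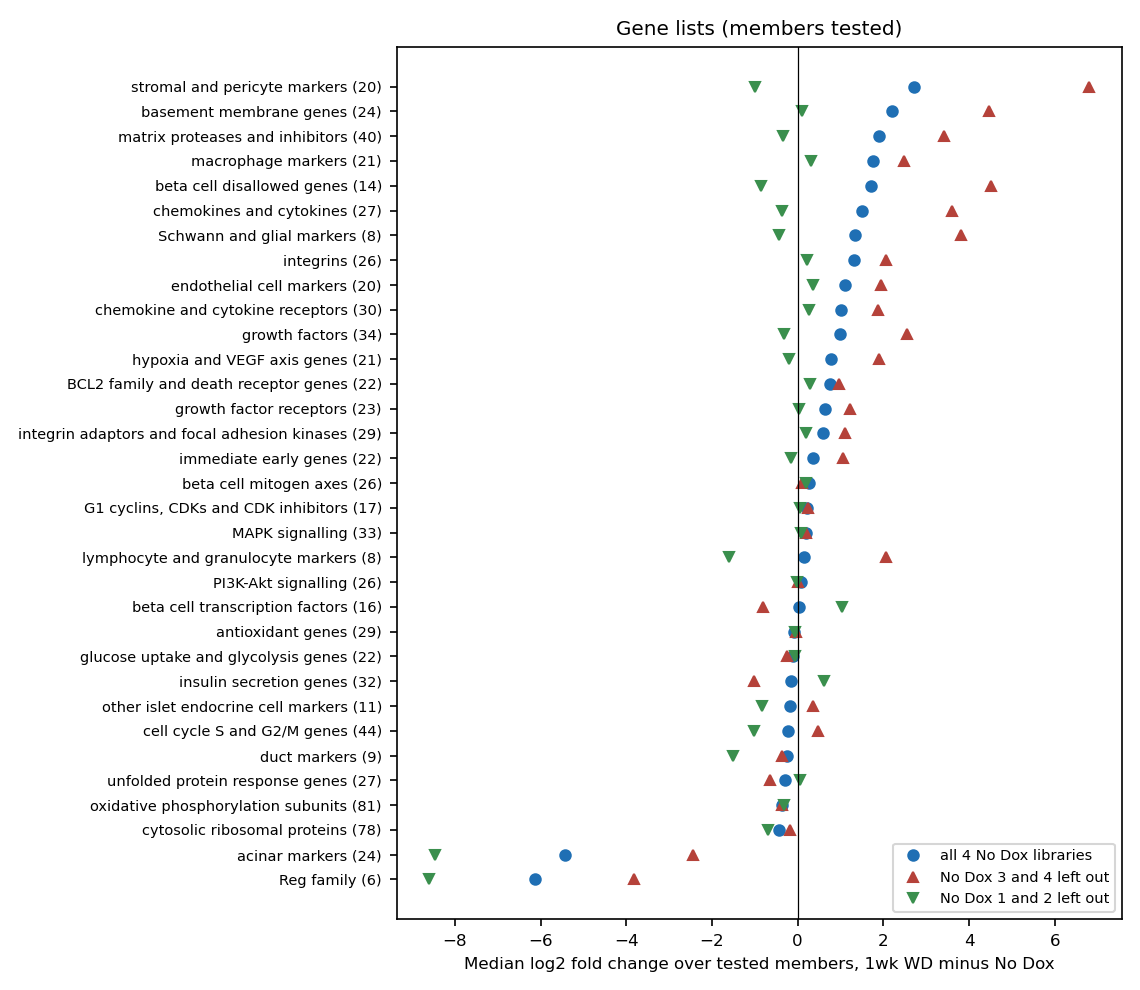
Median log2 fold change of 33 gene lists over their tested members (number in parentheses), with all 4 No Dox libraries (blue circles), without No Dox 3 and 4 (red triangles), and without No Dox 1 and 2 (green triangles). Stromal markers move from 6.80 to -0.99 between the 2 omissions, while the Reg family and acinar markers stay negative in all 3.

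Of 21 macrophage markers, 19 were positive (median 1.75) and 4 met the unadjusted threshold in the higher direction, where 2.87% of all genes did. Without No Dox 1 and 2 the median was 0.31, with 13 of 21 positive. *Tyrobp* scored 1, 1, 161, and 179 at No Dox and 198, 241, and 246 at 1wk WD, and *Csf1r* 331, 186, 588, and 2366 against 3040, 2534, and 1687. Of 27 tested chemokines and cytokines, 22 were positive (median 1.49) and 7 met the threshold, but without No Dox 1 and 2 the median was -0.36 with 11 of 26 positive, and without No Dox 3 and 4 it was 3.60. *Cxcl2* scored 8, 1, 39, and 20 at No Dox and 185, 216, and 279 at 1wk WD (4.34 ± 1.01 SE, adjusted p = 0.452), against means of 14124 and 23718 in MΦs at No Dox and 1wk WD. Of 30 chemokine and cytokine receptors, 25 were positive (median 1.02) and 6 met the threshold, and *Ccr7* was the 1 whose groups lay apart. Their median was 1.88 without No Dox 3 and 4 and 0.27, with 20 of 30 positive, without No Dox 1 and 2. *Ccr2*, the monocyte receptor, scored 56, 5, 470, and 789 at No Dox and 662, 766, and 190 at 1wk WD (2.11 ± 1.40 SE, and -0.41 without No Dox 1 and 2), and *Il12rb2* 280, 166, 568, and 336 against 1250, 989, and 395 (1.36 ± 0.64 SE, adjusted p = 0.603). Without No Dox 3 and 4 the log2 fold changes of *Ccr2* and *Il12rb2* were 4.64 and 1.86, and that of *Il12rb2* was 0.85 without No Dox 1 and 2. Of 8 tested lymphocyte and granulocyte markers, 4 were positive and 4 negative (median 0.15), with a median of 2.06 and 6 of 7 positive without No Dox 3 and 4 and -1.61 and 1 of 8 without No Dox 1 and 2. Over the 12 measured members the mean log2(score + 1) was 2.02, 1.85, 5.42, and 4.73 at No Dox and 4.94, 3.47, and 2.42 at 1wk WD. *Flt3*, a receptor of early blood cells and dendritic cells, was the 1 that met the threshold, with 1, 1, 394, and 433 at No Dox and 1043, 1227, and 153 at 1wk WD (4.34 ± 1.86 SE, adjusted p = 0.593, and 0.49 without No Dox 1 and 2), and it averaged 6343 in No Dox MΦs. *Cd3e*, a T cell gene, scored 13, 5, 777, and 133 at No Dox and 2164, 26, and 95 at 1wk WD, which overlapped. Of 20 tested endothelial markers, 19 were positive (median 1.11), 0 met the threshold, and the groups lay apart for *Plvap*, with 200, 79, 222, and 165 against 249, 322, and 2192, and for *Erg*. The endothelial median was 1.95 without No Dox 3 and 4 and 0.37, with 15 of 20 positive, without No Dox 1 and 2.

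All 24 acinar genes had a negative log2 fold change (median -5.43), and 5 met the unadjusted threshold, where 1.61% of all genes did in that direction, and 0 had groups apart. The median was -2.45 without No Dox 3 and 4 and -8.46 without No Dox 1 and 2. The acinar share of scores in No Dox 2 (0.157%) was below that in 1wk WD 1 and 2 (3.12 and 0.533%). *Ctrb1* (chymotrypsinogen B) scored 365089, 13864, 6003681, and 5227660 at No Dox and 309101, 46681, and 202 at 1wk WD, so the groups overlapped. The Reg genes, which encode secreted lectins of acinar and stressed islet cells, were measured for 7 members, and all 6 that passed the filter were lower at the unadjusted threshold (median -6.12, with -3.81 without No Dox 3 and 4 and -8.59 without No Dox 1 and 2). A member that passed through No Dox alone, such as *Reg3b* with a 1wk WD mean of 3, had to be lower. The count of 6 is therefore fixed in part by the filter. *Reg2* (chr6:78355149-78358091, plus strand, mm9) scored 28404, 286, 11990, and 60047 at No Dox and 32, 3, 47, 1, and 2 at 1wk Dox, with 82, 42, and 1 at 1wk WD (-8.83 ± 1.90 SE, adjusted p = 0.452). *Reg3b* scored 1777, 26, 1402, and 2501 at No Dox and 4, 1, and 4 at 1wk WD (-7.44 ± 1.53 SE, adjusted p = 0.452). In both genes the lowest No Dox library was the acinar-poor No Dox 2. *Reg1* scored 23556, 1436, 285050, and 422709 against 6772, 2948, and 2 and overlapped. In the other cell types, acinar markers summed to 90340 to 2486874 at No Dox and 1118 to 93823 at 1wk WD in ECs, and to 43619 to 16938847 and 2730 to 296790 in MΦs, ranges that overlapped in both. The part of acinar RNA in the Reg values was not tested.

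In stress and metabolic lists few genes met the unadjusted threshold. Of 27 unfolded protein response genes, 7 were positive and 20 negative (median -0.30, with -0.66 without No Dox 3 and 4 and 0.07 without No Dox 1 and 2), and *Herpud1*, a gene of protein degradation from the endoplasmic reticulum, was the 1 that met the unadjusted threshold, with 6415, 4656, 7515, and 6830 at No Dox and 1946, 2846, and 4808 at 1wk WD (-1.07 ± 0.38 SE, adjusted p = 0.576). Of 22 glucose uptake and glycolysis genes, 14 were negative (median -0.11, with -0.26 without No Dox 3 and 4 and -0.06 without No Dox 1 and 2), and the groups lay apart for *Pgam1*, with 4053, 4014, 2987, and 2508 against 1776, 2096, and 2052. Oxidative phosphorylation genes were negative in 67 of 81 (median -0.37) and cytosolic ribosomal protein genes in 74 of 78 (median -0.43), with 1 and 2 members at the unadjusted threshold. Their medians were -0.32 and -0.70 without No Dox 1 and 2, and -0.37 and -0.17 without No Dox 3 and 4, where 23 of 78 ribosomal genes were positive. Of 29 antioxidant genes, 17 were negative (median -0.08; -0.05 without No Dox 3 and 4). Of 21 hypoxia and VEGF axis genes, 16 were positive (median 0.77, with 1.89 without No Dox 3 and 4 and -0.21 without No Dox 1 and 2) and 0 met the threshold. Of 22 BCL2 family and death receptor genes, 18 were positive (median 0.75; 0.29 without No Dox 1 and 2) and 3 met it, where 2.87% of all genes did. *Bcl2l11* (Bim), a pro-apoptotic gene, scored 1075, 1456, 1493, and 1380 at No Dox and 3279, 2446, and 1711 at 1wk WD (0.84 ± 0.26 SE, adjusted p = 0.554), the 1 gene of its list whose groups did not overlap. Of 22 immediate early genes, 15 were positive (median 0.36, with 1.05 without No Dox 3 and 4 and -0.16 without No Dox 1 and 2), with *Egr3* at 229, 113, 2217, and 2059 against 3921, 3765, and 2372, and *Fosl1* at 26, 14, 36, and 49 against 2, 9, and 4.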

How the data were processed

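Sorted cells were sequenced as 50 bp paired-end reads after NuGEN Ovation amplification. Per the labels and the study's methods, the authors aligned reads to mm9 with TopHat 2.0 and normalized each gene by TMM in Avadis NGS. The deposited score is that value rounded to a whole number, with 1 as the lowest of 22850 genes. No read counts were given, so depth is unknown and no count test was run. The table has 38 sample columns. Of these, 6 match no sample of the series and were not used.

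log2(score + 1) of 12 β cell libraries (No Dox, 1wk Dox, and 1wk WD) was modelled in R 4.3.3 (limma 3.58.1) with a trend on mean expression, for the 16152 genes with a mean score of 20 or more at No Dox or 1wk WD. Fold changes on this scale understate those of low genes. Genes with at least a 2-fold change were counted by p adjusted after Benjamini-Hochberg and by unadjusted p, each under 0.05. p-values measure the spread between samples, which are pools of islets. A gene that passes the filter through 1 group alone had to differ, so list counts and medians describe the tested members. A symbol on several genes was taken from the gene with the highest mean.

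Named genes were *Ins1*, *Ins2*, *Vegfa*, 10 genes the study follows, up to 6 members per list (smallest p, and for β cell lists the highest scores), and the 10 genes in each direction with the smallest p among those with a fold change of 2 or more and groups that did not overlap. Others were named after their values were seen, as exceptions. The comparison and the 33 lists were chosen with earlier results of these data known. The fit was tested on simulated data in which each gene varied on its own. Shifts shared by many genes of a library were not simulated, so that test cannot show how the fit handles these unlike libraries. Scores of replicates were equal in at most 4.12% of genes, so no library was a copy of another. Alternatives were other pseudocounts, filters, scalings, and variance models, a replicate block, and omission of libraries. Upstream sequences came from RefSeq (GRCm38.p6) and were matched to mm9. Single values of some list members are not reported here.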

Additional observations from a re-analysis of the deposited data

Results flagged for a closer look

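Groups of 4 No Dox libraries were checked for a library far from the other 3, in 66 quantities (33 list means, and the 20 genes of the naming rule with those the study follows), and chance sets apart about 1 in 20 such groups. *Reg3b* in No Dox 2 (score 26, against 1402 to 2501) stood apart, with a gap of 0.872 of the group's range, above Dixon's critical value for 4 samples.

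*Gng2* was higher in every 1wk WD β cell library and lower in every 1wk WD MΦ library than in the No Dox libraries of the same cell type, where the mean log2 difference in MΦs was -0.32. *Gm10925*, a predicted gene, scored 113, 178, 85, and 105 in β cells at No Dox and 23, 37, and 17 at 1wk WD, while every 1wk WD EC library lay above every No Dox EC library, by a mean log2 difference of 1.40. The difference between the cell types was not tested in either case.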

How the results depend on the processing

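The count of 0 differentially expressed genes became 1 with a pseudocount of 20, with no filter, or with no trend, 1433 without No Dox 3 and 4, and 14 without No Dox 1 and 2, and it ran from 0 to 2 over omissions of single replicates. At an unadjusted p, the 463 higher and 260 lower genes became 281 and 142 with a minimum mean score of 200, 273 and 162 with No Dox and 1wk WD alone in the fit, 347 and 452 with quantile normalization, 72 and 166 when centred on the transcription factors, 2439 and 726 without No Dox 3 and 4, and 254 and 438 without No Dox 1 and 2. Every single omission moved the higher count by over 1.5 times, to 289, 246, 786, and 1671 without No Dox 1 to 4 and 239, 291, and 1113 without 1wk WD 1 to 3, while the lower count ran from 185 to 515, the latter without 1wk WD 3. Lower genes outnumbered higher ones under quantile normalization, the centring, and omission of No Dox 2, of 1wk WD 1, and of No Dox 1 and 2. Groups that did not overlap, 545 higher and 506 lower, became 80 and 367 when centred, 3601 and 2904 without No Dox 3 and 4, and 1722 and 1530 without No Dox 1 and 2, and ran from 725 to 2081 and from 641 to 1612 over single omissions, where fewer libraries make separation easier. The cause of the other changes was not tested.

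Samples with the same replicate number did not deviate together (r = -0.44, -0.30, and -0.49 for numbers 1 to 3), so the numbers do not pair the libraries. A fit with the replicate block gave 0 differentially expressed genes and 354 higher and 131 lower genes at an unadjusted p.

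Of 693 list medians under other settings, 36 had the opposite sign, 12 of them without No Dox 1 and 2 and 3 without No Dox 3 and 4. A move within the spread between replicates, which is wide here, shows no stability. Depth is unknown. The unlike acinar and stromal content of the 3 and 4 libraries limits every value here, and a gene that was not called is not shown to be unchanged.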
